A study of Homo sapiens with 6 samples.

Results

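Integrin and laminin genes were examined in LM3 cells, an established human hepatocellular carcinoma (HCC) line, after stable knockdown of ZNF706, a zinc finger protein. Members were chosen by gene symbol alone: every integrin alpha gene (ITGA followed by a number or letter), every integrin beta gene (ITGB followed by a number) and every laminin gene (LAMA, LAMB or LAMC followed by a number). The deposited table held 33007 genes, of which 37 were members: 17 integrin alpha, 8 integrin beta and 12 laminin chains. RNA-seq had been performed on 3 vector control samples and 3 ZNF706 knockdown samples, and the study used this comparison to look for processes that depend on ZNF706. Both groups carried the genotype label WT and differed in the treatment label only, control or ZNF706 knockdown. Per the methods, short hairpin RNAs were delivered by lentivirus and the cells were selected with puromycin. Which hairpin was sequenced, and whether the cells were a single clone, is not given in the sources used here. Nothing in the labels states that the 3 samples of a group came from separate cultures, so the p-values below measure the spread between these samples, which may be technical.

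Integrins are cell surface receptors made of 1 alpha and 1 beta chain, and the pair decides which matrix protein is bound. Laminins are secreted trimers of 1 alpha, 1 beta and 1 gamma chain that build the basement membrane, the sheet on which epithelial cells rest. The integrins that pair ITGB1 with ITGA3 or ITGA6, and ITGB4 with ITGA6, are laminin receptors. Pairs of ITGB1 with ITGA1 or ITGA2 bind collagen, and ITGA5 and ITGAV bind proteins with an RGD motif such as fibronectin. Healthy liver sinusoids have little laminin, whereas liver tumours commonly deposit it, and LAMA3 and LAMB3 are chains typical of epithelial basement membranes.

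Total counts per sample were 62684076, 64713764 and 63054445 in the control group and 68548419, 65861994 and 69057423 in the knockdown group. Counts of ZNF706 itself were 3211, 3504 and 3357 in controls, against 2350, 2068 and 2298 after knockdown. As CPM, which are counts scaled by library size and here by factors from the trimmed mean of M values (TMM), this was 53.9 ± 1.76 against 32.4 ± 1.39 (SD, n = 3 per group), a fall of 39.9%. The log2 fold change was -0.73 (SE 0.0505, adjusted p = 3.7e-05 edgeR quasi-likelihood F test, Benjamini-Hochberg adjusted over all 18390 genes tested). The targeted transcript was therefore lower in every knockdown sample, though most of it remained. In these bulk samples, fewer cells with the transcript and less of it in each cell cannot be told apart.

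The HCC cell label was checked against markers. KRT18, a keratin of simple epithelia and the most abundant HCC marker, had 270.6 FPKM (fragments per kilobase of gene length and unit of library size) in the control group and 261.1 in the knockdown group, and KRT8 lay between 190.3 and 207.4 in the 6 samples. The epithelial surface markers EPCAM and CDH1 were nearly absent, with EPCAM at 0.127 FPKM in the control group and 0.230 in the knockdown group and CDH1 at 0.293 and 0.457. Markers of differentiated hepatocytes were low, with ALB at 0.770, 3.54 and 3.57 FPKM in the controls and 2.17, 2.45 and 0.50 in the knockdown samples. The tumour markers AFP (0.30, 0.97 and 1.09 FPKM in the controls, 0.75, 0.65 and 0.12 after knockdown) and GPC3 (0.03, 0.57 and 0.80, then 0.56, 0.46 and 0) were low as well. Control sample 1 and knockdown sample 3 had the lowest ALB, AFP, GPC3 and EPCAM and had TTR at 0, and so stood apart from the others in these markers. Other HCC markers did not follow. HNF4A was highest in control sample 1 (0.23 FPKM). APOA1 had 1.56, 1.86 and 2.74 FPKM in the controls and 0, 0.05 and 1.59 after knockdown, so knockdown sample 3 was the highest of its group. Without control sample 1 the integrin and laminin genes called were 6 higher and 7 lower, and without knockdown sample 3 they were 7 and 6, beside 6 and 7 with all samples. HNF4A had at most 0.230 FPKM in any sample, and APOB at most 0.280. APOB was the only one of the 10 HCC markers called, lower after knockdown (log2 fold change -0.98, adjusted p = 0.0205, edgeR). The libraries thus had high simple epithelial keratins, but little mRNA of these surface markers or of mature liver functions.

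Of the 37 members, 31 had enough counts to be tested. ITGA4, ITGA9, ITGAD, ITGAL and ITGAX had at most 16 counts in any sample, LAMB4 had 0 in every sample, and ITGA8 was not analysed here. Among the members called, knockdown cells had higher LAMA3, LAMA4, ITGA5, ITGB2 and ITGB3, and lower LAMB3, LAMB2, LAMA5, LAMC3, ITGA3, ITGA2 and ITGAV. In all, 13 of 31 members were called at an adjusted p below 0.05 (41.9%), 6 higher and 7 lower, against 22.8% of all 18390 genes tested, of which 10.4% were higher and 12.4% lower. The CPM of the groups did not overlap for 18 of the 31 members (58.1%), 9 in each direction, against 39.4% of all genes. Abundant genes were called more often, and among the 11372 tested genes with a mean of at least 1 FPKM, 32.8% were called, beside 11 of the 20 members at that level. The members' median log2 fold change was -0.00 (all genes, 0.01) and their median absolute change was 0.26 (all genes, 0.20). Members thus moved in both directions around a median near zero, and 3 of the called members changed by 1.5-fold or more, ITGB3 and ITGB2 among them. The balance of directions moved with the scaling. Without TMM factors, 2742 genes were higher and 1518 lower in place of 1906 and 2286, and 8 members were higher and 6 lower.

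**Figure D1:**
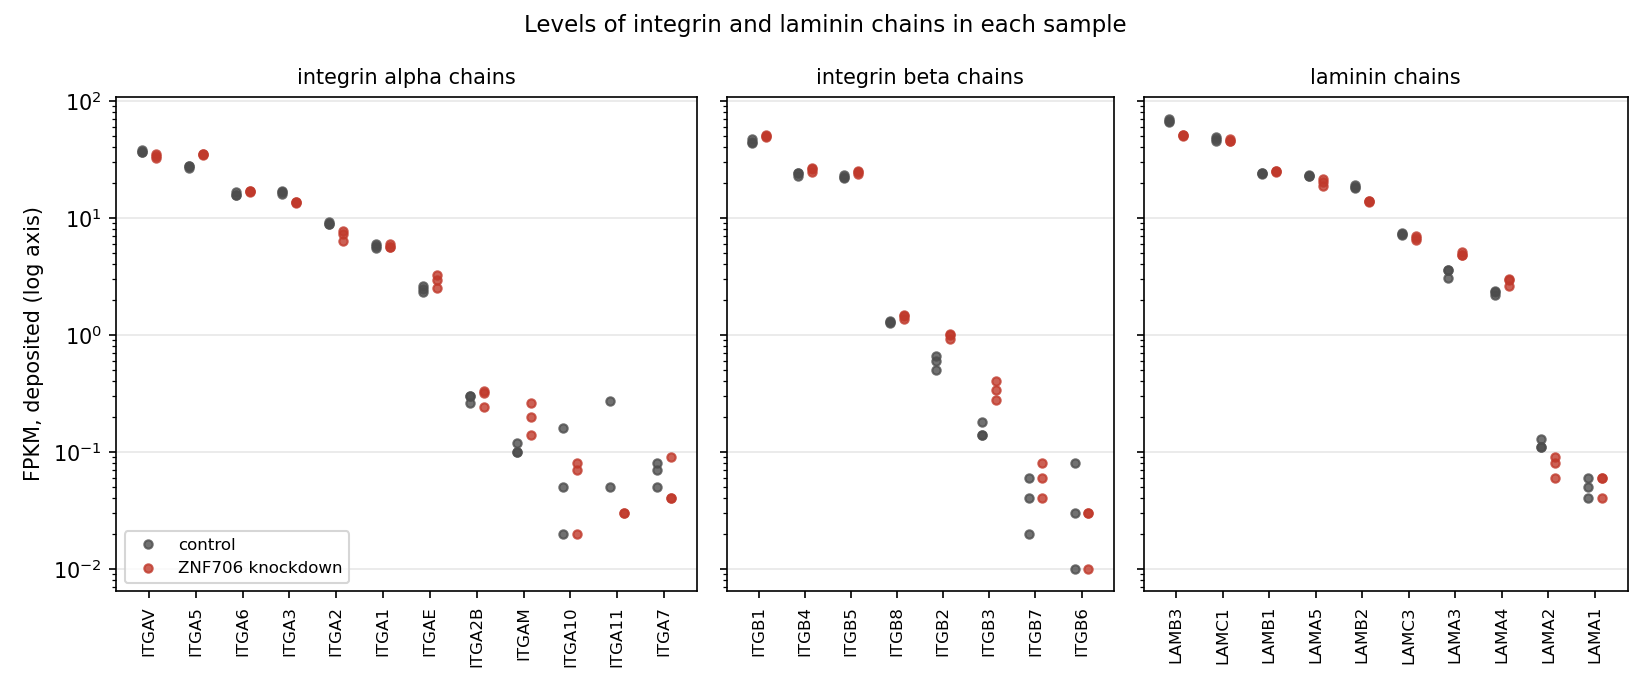
Deposited FPKM on a log axis for 30 tested members, in panels for integrin alpha, integrin beta and laminin chains. Each point is 1 of the 3 control or 3 knockdown samples, and samples listed at 0 are not drawn. LAMB3, ITGB1 and LAMC1 stand highest, with means of 59.3, 47.7 and 46.4 FPKM over the 6 samples.

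Levels of different chains were compared on FPKM, which is divided by gene length. Among the laminins described here the order of the means over 6 samples was LAMB3 (59.3 FPKM), LAMC1 (46.4), LAMB1 (24.5), LAMA5 (21.6), LAMB2 (16.2), LAMC3 (7.00), LAMA3 (4.17) and LAMA4 (2.57). The integrin order was ITGB1 (47.7 FPKM), ITGAV (35.4), ITGA5 (31.2), ITGB4 (24.8), ITGB5 (23.4), ITGA6 (16.4), ITGA3 (15.1), ITGA2 (8.02) and ITGA1 (5.74). ITGAE had 2.69 FPKM and ITGB8 had 1.36. The deposited lengths matched the union of all annotated exons of a gene (a median of 1.14 times that union for 20 members), so genes with many alternative exons read low. That factor was similar in all 20 members, from 1.11 to 1.18. LAMA3 had an exon union of 14.68 kb where its longest transcript is 10.66 kb, and its FPKM is a lower estimate than one per transcript would be.

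Laminin alpha chains set the receptor preference of the trimer. LAMA3, an alpha chain of epithelial laminins (ENSG00000053747, GRCh38 chr18:23689443-23956222, + strand), had 60.7, 61.2 and 52.6 CPM in the controls and 84.7, 79.8 and 78.8 in the knockdown samples. Every knockdown sample stood above every control sample, a rise of 39.5% (log2 fold change 0.48, SE 0.0594, adjusted p = 0.000548, edgeR). LAMA5 (ENSG00000130702, chr20:62307955-62351989, - strand), the broadly expressed epithelial alpha chain and the most abundant one here, went from 377.6, 386.7 and 384.1 CPM to 341.8, 321.1 and 300.5. Its groups did not overlap either, and it fell by 0.25 on the log2 scale (SE 0.0449, adjusted p = 0.00331). ADRM1 lies on the opposite strand and shares 244 of the 14291 exon bases of LAMA5, with a mean count equal to 34.0% of that of LAMA5. ADRM1 was not called (log2 fold change -0.09, adjusted p = 0.118), and how strand was handled in counting is not given in the sources used here, so the LAMA5 value is uncertain to that extent. LAMA4, a chain typical of vessels and mesenchyme (ENSG00000112769, chr6:112107931-112254722, - strand), had 32.6, 30.7 and 32.4 CPM against 40.0, 39.5 and 35.5. The log2 fold change of LAMA4 was 0.26 (adjusted p = 0.0127), a call that was lost without control sample 2 (adjusted p = 0.0565), knockdown sample 1 (0.0549) or knockdown sample 2 (0.0619). LAMA2, the muscle chain, was near 1 CPM (1.43 ± 0.168 against 0.933 ± 0.186) and LAMA1 likewise (0.954 ± 0.228 against 0.924 ± 0.155), and neither was called.

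Laminin beta chains fell where they changed. LAMB3, a beta chain of epithelial laminins (ENSG00000196878, chr1:209614870-209652425, - strand), had 360.7, 376.6 and 357.5 CPM in the controls and 267.7, 259.0 and 267.5 in the knockdown samples. The samples of a group lay close together and the groups were far apart, with a fall of 27.5% (log2 fold change -0.46, SE 0.0338, adjusted p = 4.66e-05, edgeR). LAMB2, the beta chain of synaptic and kidney laminins (ENSG00000172037, chr3:49121114-49133118, - strand), had 144.4, 153.3 and 144.6 CPM against 108.2, 105.5 and 108.0. That was a fall of similar size, 27.3% (log2 fold change -0.46, SE 0.0368, adjusted p = 6.81e-05). LAMB1, the third beta chain detected, had 224.8 ± 2.79 CPM in the control group and 225.8 ± 2.82 in the knockdown group, and the 95% interval of its log2 fold change ran from -0.06 to 0.08. LAMB1 was not called and its sign turned without control sample 2 or knockdown sample 2.

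Of the gamma chains, LAMC1, the one in most laminins, had 460.4 ± 17.3 CPM against 433.5 ± 8.49 after knockdown and was not called (log2 fold change -0.09, adjusted p = 0.112, edgeR, 95% interval -0.17 to -0.01). It was called by DESeq2 (adjusted p = 0.0477) and with the GC content offset and replicate block together (0.0488), and under library size scaling its log2 fold change was -0.03. LAMC3 (ENSG00000050555, chr9:131009174-131094473, + strand) had 61.3, 63.3 and 64.5 CPM against 57.0, 58.6 and 54.6. The LAMC3 change was small (log2 fold change -0.15, adjusted p = 0.0259) and the call was lost in 8 of 16 alternative settings, among them library size scaling (-0.10, adjusted p = 0.125) and the omission of control sample 2 (0.0795), control sample 3 (0.0876), knockdown sample 1 (0.0576) or knockdown sample 3 (0.0903). With the GC content offset the change of LAMC3 was larger (-0.24, adjusted p = 0.00237).

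LAMA3 and LAMB3 therefore moved in opposite directions. Within each sample, the LAMB3 level divided by the LAMA3 level, both in FPKM, was 18.8, 19.5 and 21.5 in the controls and 9.99, 10.3 and 10.7 in the knockdown samples. The groups were fully separated, at 19.9 ± 1.42 and 10.3 ± 0.372 (SD, n = 3). These chains were taken for their opposite calls, so the ratio restates those calls and no test of it is given. LAMB3 remained the more abundant of the pair in every knockdown sample.

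**Figure D2:**
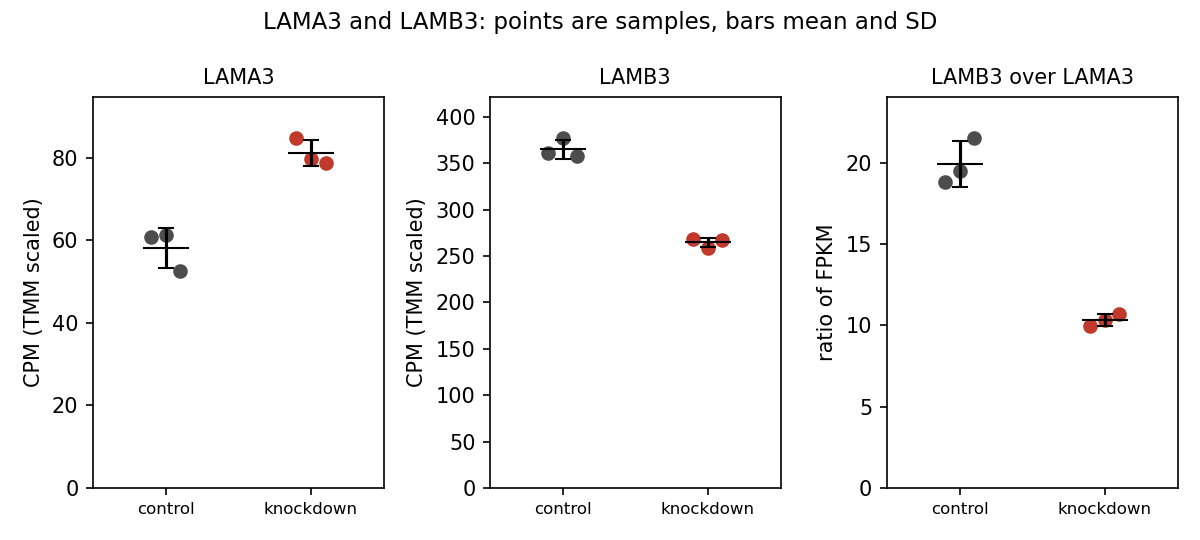
TMM-scaled CPM of LAMA3 and LAMB3, and the within-sample ratio of LAMB3 to LAMA3 in FPKM, for control and knockdown samples. Points are samples and bars are the mean and SD of 3. LAMA3 is higher and LAMB3 is lower in all 3 knockdown samples, and the ratio goes from 19.9 ± 1.42 to 10.3 ± 0.372.

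Upstream sequence is shown because LAMA3 and LAMB3, which moved in opposite directions, were the only tested members with a RefSeq entry that had an AP-1 motif there. AP-1 is a dimer of Jun and Fos proteins that binds TGAGTCA, or TGACTCA when read on the other strand. RefSeq promoter sequences (GRCh38.p14) were found for 25 members, 23 of them tested, and the 250 bases before the start were searched on both strands. The 25 members had 32 promoter entries. An AP-1 motif was present in 2 of these 32, beside 4.20% of all 35116 promoters in the table. An E-box, CACGTG, which is bound by MYC and related factors, was present in 1 of the 32, beside 6.34%, and the SP1 box GGGCGG in 16, beside 42.6%. A match describes the letters only. The matches below are printed 5′ to 3′ on the gene's strand with the motif in capitals. They lie 125 and 69 bases before the LAMA3 start used by RefSeq, 67 bases before a start of LAMB3 and 101 bases before a start of ITGA6, at chr18:23872885-23872911 (+), chr18:23872941-23872967 (+), chr1:209651425-209651451 (-) and chr2:172427225-172427250 (+) in that order. LAMB3 has 3 RefSeq starts, and the match belongs to the one 1051 bases inside the deposited gene, while the other windows held no AP-1 motif. ITGA6 has a second start whose window held no E-box. The RefSeq start of LAMA3 is also inside the span of the deposited gene, so it belongs to a shorter transcript, which gene counts do not separate from the longer ones. Of the 250 bases of the LAMA3 window, 180 are also annotated as untranslated exon sequence, beside 20 in the LAMB3 window with the match.
LAMA3 AP-1, distal: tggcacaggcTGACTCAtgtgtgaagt
LAMA3 AP-1, proximal: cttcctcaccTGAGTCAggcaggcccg
LAMB3 AP-1: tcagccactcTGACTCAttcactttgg
ITGA6 E-box: tatgcatctgCACGTGggcccacatc

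Turning to the receptors, ITGA3, ITGA6 and ITGA7 are alpha chains that bind laminin, and ITGA7, the muscle one, was at only 0.0617 FPKM and was not called (log2 fold change -0.26, adjusted p = 0.729, edgeR). ITGA3 (ENSG00000005884, chr17:50055968-50090480, + strand) had 190.7, 190.6 and 184.0 CPM in the controls and 150.4, 150.5 and 146.7 in the knockdown samples. Replicates were tight and the groups did not overlap, with a fall of 20.8% (log2 fold change -0.34, SE 0.0333, adjusted p = 0.000175, edgeR). ITGA6 had 123.6 ± 3.18 CPM against 126.6 ± 1.63 and was not called (log2 fold change 0.03, 95% interval -0.04 to 0.11). Its partner ITGB4, the long-tailed chain of hemidesmosomes, had 186.3 ± 5.99 against 195.9 ± 9.10 CPM and was not called (0.07, 95% interval -0.02 to 0.17), with a sign that turned under the GC content offset. The within-sample ratio of ITGA6 to ITGB4 in FPKM was 0.669 ± 0.0247 against 0.652 ± 0.0294, with overlapping groups.

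Among the collagen receptors, ITGA2 (ENSG00000164171, chr5:52989340-53094779, + strand) had 83.6, 80.4 and 81.3 CPM in the controls and 68.8, 63.8 and 56.3 in the knockdown samples. Knockdown samples varied more than controls but were all lower, by 23.0% on average (log2 fold change -0.38, SE 0.0638, adjusted p = 0.00263, edgeR). The neighbouring ITGA1, 30.1 kb away, had 123.4 ± 4.30 against 119.2 ± 4.10 CPM and was not called (log2 fold change -0.05, 95% interval -0.14 to 0.04, positive under library size scaling and under the GC content offsets). PELO, a ribosome rescue factor gene inside ITGA1 on the same strand, shares 475 of the 18566 exon bases of ITGA1 and carried a count equal to 34.5% of that of ITGA1. PELO was called lower (log2 fold change -0.24, adjusted p = 0.0265), so the ITGA1 value is uncertain. The remaining collagen chains, ITGA10 and ITGA11, were rare and uneven. Counts of ITGA11 were 211, 0 and 42 in controls and 26, 22 and 4 after knockdown, and it was not called (adjusted p = 0.196).

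RGD receptor chains changed in opposite directions. ITGA5, the alpha chain of the classical fibronectin receptor (ENSG00000161638, chr12:54395261-54419266, - strand), had 236.8, 237.3 and 231.0 CPM in the controls and 289.3, 288.3 and 288.2 in the knockdown samples. The knockdown samples lay within about 1 CPM of each other, 22.8% above the controls (log2 fold change 0.30, SE 0.0302, adjusted p = 0.000209, edgeR). ITGAV, the vitronectin receptor alpha chain (ENSG00000138448, chr2:186590056-186680901, + strand), had 358.2, 348.2 and 354.3 CPM against 321.8, 310.7 and 300.1. Its fall was smaller, 12.1% (log2 fold change -0.19, SE 0.0347, adjusted p = 0.00432), and with the GC content offset it was -0.10 on the log2 scale (adjusted p = 0.041). ITGB3, which pairs with ITGAV or with the platelet chain ITGA2B (ENSG00000259207, chr17:47253827-47313743, + strand), had 1.02, 1.34 and 1.03 CPM against 2.01, 2.43 and 2.89. It rose 2.16-fold (log2 fold change 1.11, SE 0.228, adjusted p = 0.00686) but from only 63, 85 and 63 counts, and by FPKM it was below 1% of the beta chains in both groups. ITGA2B had 1.94 ± 0.143 against 1.94 ± 0.318 CPM. ITGB5 (169.9 ± 4.97 against 177.9 ± 6.13 CPM) and ITGB8 (22.7 ± 0.370 against 24.4 ± 0.892) were not called, although ITGB5 was called under library size scaling and on FPKM.

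ITGB1, the common beta chain that most of the alpha chains above pair with, had 328.6, 306.8 and 314.9 CPM in the controls and 344.4, 337.3 and 329.2 in the knockdown samples. The groups just failed to overlap, and the log2 fold change of ITGB1 was 0.09 (95% interval 0.01 to 0.17), which was not called (adjusted p = 0.108, edgeR). That call differed between settings. With library size only the log2 fold change was 0.14 (adjusted p = 0.0227), and with a GC content offset it was 0.16 (0.00663). Within each sample, ITGA5 per ITGB1 in FPKM went from 0.605 ± 0.0224 to 0.698 ± 0.0145 and ITGA3 per ITGB1 from 0.365 ± 0.0139 to 0.272 ± 0.00315. The groups did not overlap in either ratio, and ITGA5 and ITGA3 were themselves called, so no test of the ratios is given. ITGA5 per ITGA3 went from 1.66 ± 0.00929 to 2.57 ± 0.0364.

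Leukocyte integrin chains were at low levels. ITGB2, the beta chain of leukocyte integrins (ENSG00000160255, chr21:44885953-44931989, - strand), had counts of 301, 259 and 332 in controls and of 500, 519 and 552 after knockdown, or 4.86, 4.07 and 5.41 CPM against 7.13, 7.73 and 7.88. All knockdown samples were higher, 1.59-fold on average (log2 fold change 0.67, SE 0.133, adjusted p = 0.00597, edgeR), at a mean of 0.783 FPKM. ITGB2-AS1 on the opposite strand shares 303 bases and had a mean of 32.2 counts, 7.84% of ITGB2. ITGAM, a partner of ITGB2, had 0.727 ± 0.0514 against 1.31 ± 0.408 CPM without overlap and was not called (log2 fold change 0.85, adjusted p = 0.0741). ITGAE, which binds E-cadherin, had 18.9 ± 1.36 against 21.5 ± 2.59 CPM and was not called, and HASPIN on its opposite strand shares 427 bases. The mean count of HASPIN was 135% of that of ITGAE, so the ITGAE value is uncertain. Of 8 leukocyte markers, 6 were in the table, 3 could be tested and 0 were called by edgeR, with 0 at an unadjusted p below 0.05 and 0 called by DESeq2. Their summed level was 0.330, 0.660 and 0.890 FPKM in the controls and 0.440, 0.420 and 0.590 in the knockdown samples. CD14 was the most abundant by the mean over 6 samples (0.230 FPKM), LYZ (0.217) stood above it in the controls, and SPI1, a defining leukocyte factor, was at 0 in every sample. Of 4 platelet markers, 2 were in the table, with sums of 0.470, 0.330 and 0.200 FPKM against 0.480, 0.570 and 0.390, most of it GP1BA.

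**Figure D3:**
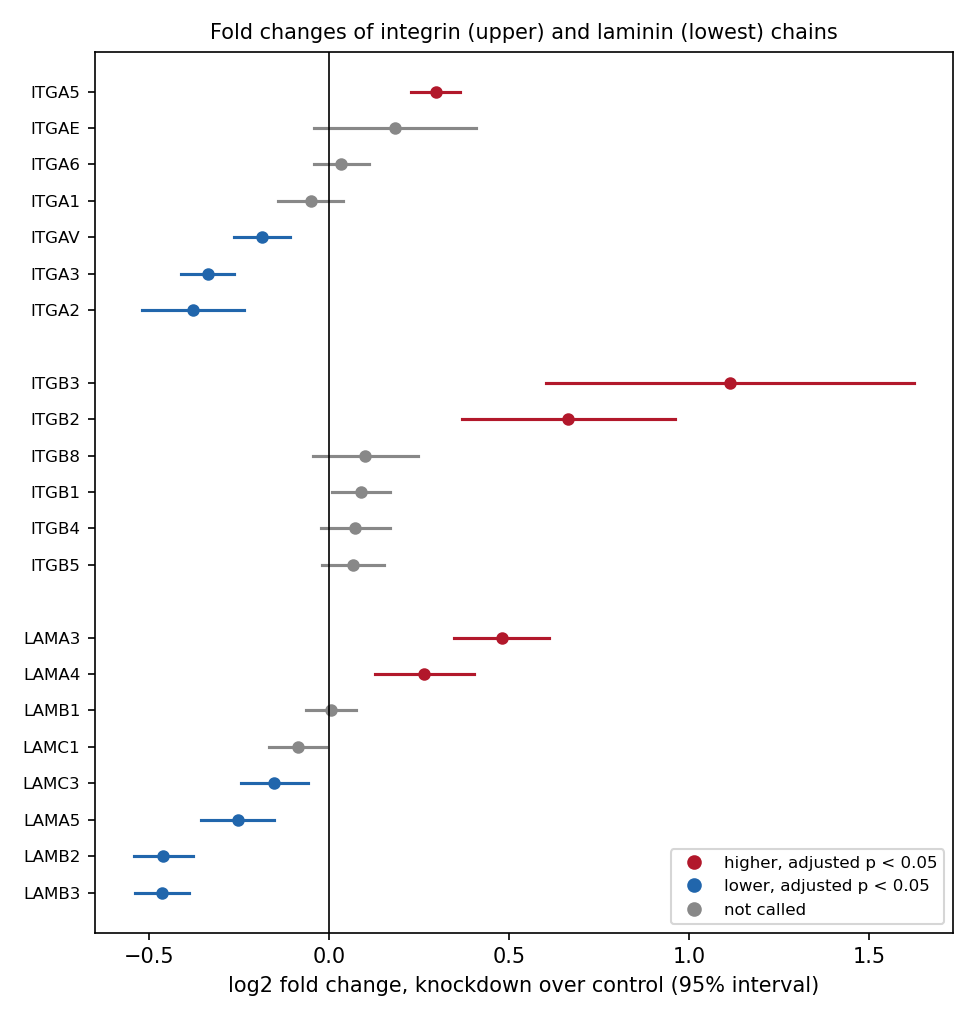
Log2 fold changes of knockdown over control from edgeR, with 95% intervals, for 21 members with a mean of at least 1 FPKM or a call, integrins above laminins. Red marks members called higher, blue those called lower and grey those not called. ITGB3 has the widest interval of the called members, 0.60 to 1.62, and LAMB1 lies closest to zero.

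The make-up of each chain class was compared as the percent of the class sum of FPKM in each sample. Alpha integrin chains summed to 114.9 ± 2.36 FPKM in the control group and 115.4 ± 2.55 in the knockdown group, with overlap. Inside that sum ITGAV went from 32.3% ± 0.398 to 29.2% ± 0.435 and ITGA5 from 23.9% ± 0.261 to 30.2% ± 0.570. On the deposited lengths, ITGA5 thus came level with ITGAV, standing slightly above it in knockdown samples 2 and 3 and at 29.7% beside 29.7% in sample 1. The exon union of ITGA5 is 7.577 kb and its longest transcript 4.996 kb, beside 8.211 and 7.03 kb for ITGAV. Relative to the longest transcripts, lengths based on these unions lower ITGA5 more than ITGAV. ITGA3 went from 14.4% ± 0.205 to 11.8% ± 0.102 and ITGA2 from 7.78% ± 0.0902 to 6.15% ± 0.492. Beta integrin chains summed to 93.8 ± 2.41 against 103.1 ± 2.33 FPKM without overlap, while the shares of ITGB1, ITGB4 and ITGB5 overlapped between groups (48.4% against 48.5% for ITGB1). These FPKM carry the authors' library scaling and not TMM, and none of these 3 beta chains was called on the TMM scale.

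Laminin alpha chains summed to 28.98 ± 0.401 FPKM in the control group and 28.0 ± 1.66 in the knockdown group, with overlap. LAMA5 made up 79.7% ± 0.795 of them against 71.7% ± 0.430, and LAMA3 11.8% ± 0.915 against 17.7% ± 0.475. The beta chains were lower as a class, at 110.3 ± 2.52 against 89.7 ± 0.784 FPKM without overlap, and LAMB1 went from 21.8% ± 0.685 to 27.8% ± 0.589 of them as LAMB3 and LAMB2 fell. Among these 4 classes, the sums differed between groups without overlap for the beta chains of both families, higher for integrins and lower for laminins. No test was made of these sums.

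**Figure D4:**
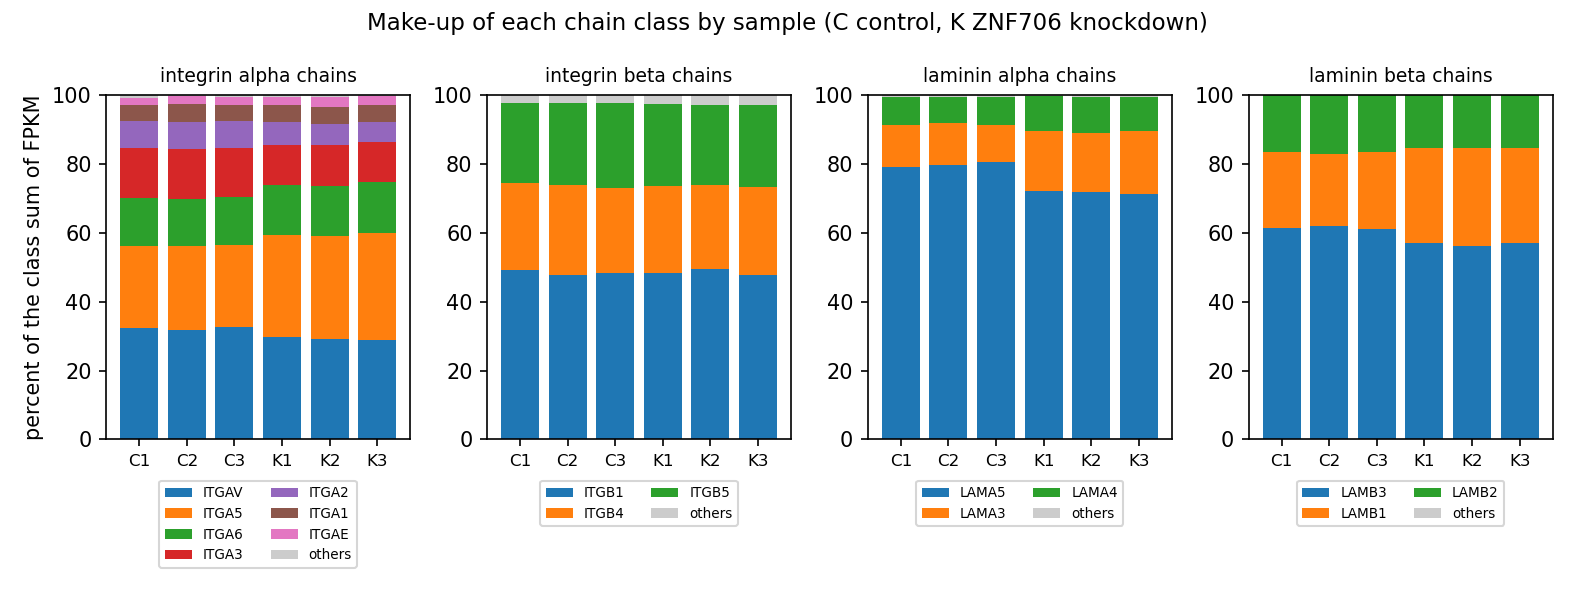
Percent of the class sum of FPKM contributed by each chain in every sample, for integrin alpha and beta and laminin alpha and beta chains. C1 to C3 are control samples and K1 to K3 are ZNF706 knockdown samples. The ITGA5, LAMA3 and LAMB1 segments are wider in all 3 knockdown samples.

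Genes that work with integrins and laminins were taken from 7 lists of 90 genes, of which 89 were in the table and 83 were tested. Of these, 29 were called (34.9%, against 22.8% of all genes and 32.8% of those with a mean of at least 1 FPKM) and they split into 14 higher and 15 lower. The median log2 fold change of the 83 was -0.01. That split depended on the processing, with 23 higher and 8 lower under library size scaling and 17 and 20 by DESeq2. When 1 sample was omitted, 8 to 11 were lower (8 without knockdown sample 2). Lower calls over all genes moved too, with 2286 in the main fit, 1518 under library size scaling and 2654 by DESeq2. They numbered 1500 to 1939 with 1 sample omitted. Among 26 integrin activators and adaptors, 6 were higher and 4 lower. LIMS2, a partner of integrin-linked kinase, had 4.20 ± 0.540 against 6.78 ± 0.225 CPM (log2 fold change 0.69, adjusted p = 0.00473, edgeR), and TLN2, a talin that switches integrins on, 5.12 ± 0.515 against 7.95 ± 0.232 (0.63, adjusted p = 0.00406). The adaptors CRKL (-0.22) and BCAR1 (-0.15) were lower, and the BCAR1 call was lost in 6 of 8 alternatives. Further calls, named here after their values were seen, were the actin crosslinker FLNA (0.27) and the tensins TNS3 (0.34) and TNS4 (0.39). Among 13 inhibitors and traffic genes, CCM2 was higher (0.35) and DAB2 (-0.68) and RAB21 (-0.17), both concerned with integrin uptake, were lower, and DAB2 lost its call without control sample 1, knockdown sample 2 or knockdown sample 3.

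Among basement membrane partners 4 of 15 tested were called, all lower, a share near the 22.8% of all genes called in either direction. AGRN, a proteoglycan that binds laminin, changed by -0.26 on the log2 scale (adjusted p = 0.000735) and SPARC, a collagen-binding matrix protein, -0.24 (0.000885), with COL4A5 and FBLN1 the other calls. Other integrin ligands included 3 of 13 higher and 2 lower. FN1, the fibronectin bound by ITGA5, had 136.6, 127.6 and 114.3 CPM in the controls and 206.9, 195.5 and 190.1 in the knockdown samples. All knockdown samples were above all controls (log2 fold change 0.65, adjusted p = 0.000142, edgeR), so the ligand and its receptor chain ITGA5 both had higher mRNA. THBS1, thrombospondin, was higher as well (80.2 ± 4.36 against 113.4 ± 12.3 CPM, log2 fold change 0.50, adjusted p = 0.00113), as was TGFB1. ICAM1, a ligand of ITGB2 integrins, was lower (178.5 ± 3.85 against 145.5 ± 2.36 CPM, -0.29, adjusted p = 0.000363), and CCN1 lower (-0.27) with a call lost in 5 of 8 alternatives.

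Laminin receptors that are not integrins were mixed. The syndecan SDC1 (log2 fold change 0.37, adjusted p = 0.000294) and dystroglycan, DAG1 (0.24, adjusted p = 0.000777), were higher, and BCAM, which binds LAMA5, was lower (-0.58, adjusted p = 0.00147), out of 6 tested. Of 7 tetraspanins, which hold integrins in membrane clusters, CD81 (0.22) and CD151 (0.17) were higher and CD9 (-0.32) and CD63 (-0.23) lower, the CD63 call being lost in 5 of 8 alternatives. Calls thus numbered 3 of 6 laminin receptors and 4 of 7 tetraspanins. Over all genes tested the share was 22.8%, and it was 32.8% of those with a mean of at least 1 FPKM. Of the 3 hemidesmosome partners PLEC, DST and COL17A1, 0 were called by edgeR, while 2 (PLEC and COL17A1) had an unadjusted p below 0.05 and 1 (PLEC) was called higher by DESeq2.

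**Figure D5:**
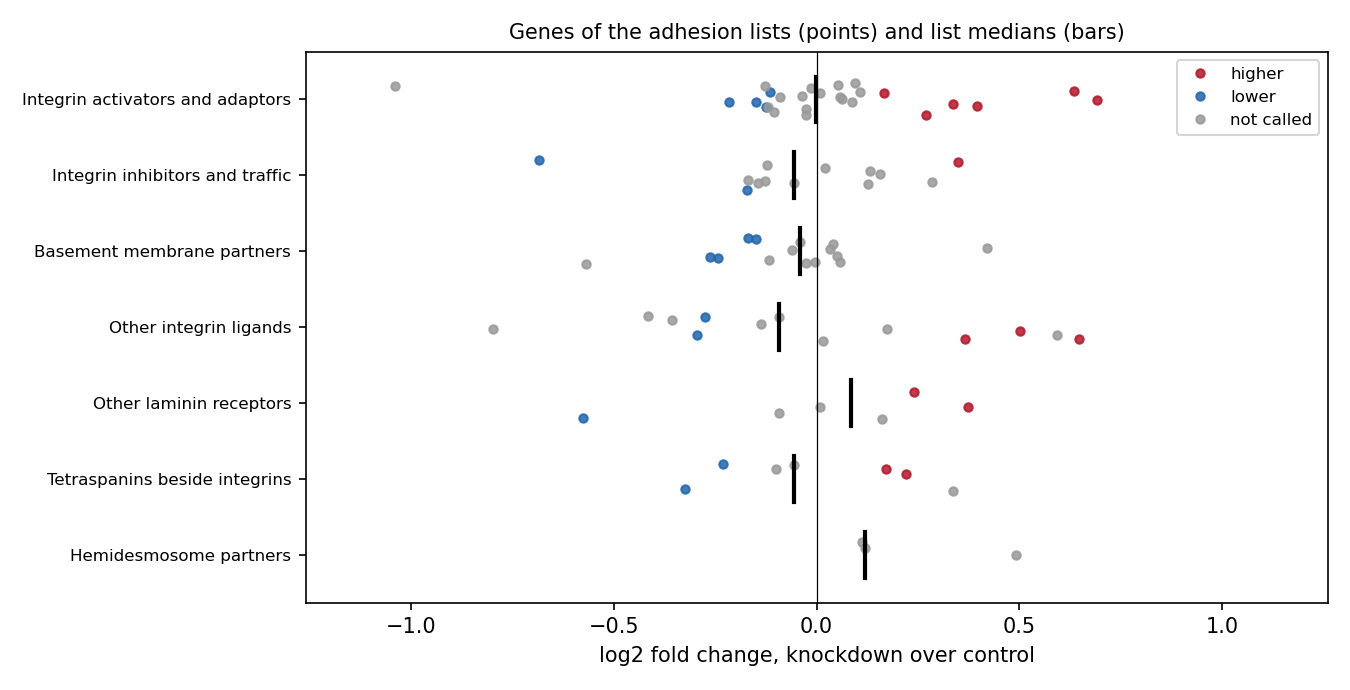
Log2 fold changes of knockdown over control for the 83 tested genes of the 7 lists, 1 row per list. Points are genes coloured by call and short bars are list medians. Higher and lower calls lie on both sides in most lists, while the 4 calls among basement membrane partners are all on the lower side.

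Markers of other cells that could share some of these chains were summed in each sample. Endothelial markers, of which 4 of 5 were in the table, summed to 1.79, 1.91 and 2.09 FPKM in the controls and 1.45, 1.62 and 1.71 in the knockdown samples, with CDH5 the most abundant and lower (log2 fold change -0.70, adjusted p = 0.00135). The other of the 2 tested, PECAM1, was not called (0.15, adjusted p = 0.536). Fibroblast markers summed to 9.41, 7.90 and 8.33 FPKM against 9.85, 10.1 and 9.61. COL1A1 (0.20, adjusted p = 0.00231), the most abundant, and PDGFRB (0.68, adjusted p = 0.00297) were called higher out of 5 tested, beside 22.8% of all genes called in either direction. The median log2 fold change of the list was -0.04. The other tested fibroblast markers were not called, with log2 fold changes of -1.26 for LUM (adjusted p = 0.121), -2.04 for COL3A1 (0.344) and -0.04 for DCN (0.974). Counts of COL3A1 were 336, 0 and 48 in the controls and 42, 61 and 0 after knockdown. Those of LUM were 163, 49 and 74 against 62, 52 and 18. Control sample 1 was the highest for both genes, and their log2 fold changes rested largely on it. COL1A2, also on the list, was not tested, with counts of 117, 8 and 0 in the controls and 0, 0 and 119 after knockdown. COL1A1 had a mean of 7.73 FPKM over the 6 samples, beside 2.57 for LAMA4 and 8.27 for FN1. The means of the other fibroblast markers were 0.867 for PDGFRB, 0.352 for LUM, 0.165 for COL3A1, 0.05 for COL1A2 and 0.03 for DCN. The part of such cells in the LAMA4 and FN1 values was not tested.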

How the data were processed

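Sequencing was by Illumina NovaSeq from total RNA of 3 control and 3 ZNF706 knockdown samples. The authors mapped reads with HISAT2, and the submitters' notes name GRCh38, cutadapt 1.9 and FastQC. They deposited raw counts per gene and FPKM per gene, the latter divided by gene length and library size. The counting program and its strand setting are not given in the sources used here.

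Differences in counts were tested in edgeR 4.0.16 (R 4.3.3) by quasi-likelihood (glmQLFit, glmQLFTest) after filterByExpr and TMM, with the group as the only term and Benjamini-Hochberg adjustment over 18390 genes at 0.05. Each standard error was the size of the log2 fold change over the root of F. FPKM was used for levels between genes, shares and ratios. Alternatives were DESeq2 1.42.0, limma 3.58.1 on log2(FPKM + 0.1) and log2(FPKM + 1), other scalings and filters, a GC content offset, a replicate block and the omission of each sample. Totals were 62684076 to 69057423 counts per sample, and members at 16 counts or fewer fell below the filter.

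Genes named are ZNF706, every called member except 1 that is not reported here, every member with a mean of at least 5 FPKM, up to 2 called genes per direction in each pathway list, and of each marker list the leading gene and any at 0 in every sample. Other members are named because they complete a chain class. Added after their values were seen were TGFB1, CDH1, COL4A5, FBLN1, FLNA, TNS3, TNS4 and the hemidesmosome partners. So were the markers beyond the leading one: KRT8, EPCAM, ALB, AFP, GPC3, TTR, APOA1, HNF4A, APOB, LYZ, PECAM1, PDGFRB, LUM, COL3A1, COL1A2 and DCN. The members, lists and rules were chosen with earlier results of these data known. Samples of 1 group were not repeat deposits, since their counts differed by more than sampling noise.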

Additional observations from a re-analysis of the deposited data

How the results depend on the processing

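Over 16 alternative settings, 11 of the 13 called members kept the call and its direction in every setting that tested them. The exceptions were LAMA4 and LAMC3, given above. Members called higher numbered 5 to 7 and lower 6 to 7 on leaving out single samples, and 6 to 8 in each direction in the other settings. Pathway list genes called higher numbered 13 to 17 and lower 8 to 11 with each sample left out (8 lower without knockdown sample 2). With library size scaling they numbered 23 and 8. Lower calls over all genes also fell with each sample left out, from 2286 to between 1500 and 1939. Some uncalled members turned sign near zero. The log2 fold change of ITGA1 was 0.0034 with library size scaling, 0.032 with the GC content offset and 0.032 with the offset and block. That of ITGB4 was -0.0116 with the offset and -0.0121 with the offset and block. That of LAMB1 was between -0.0037 (without control sample 2) and 0.0164 with single samples left out, and -0.00064 without knockdown sample 2. Genes called over the whole table numbered 2648 without knockdown sample 2, against 4192 in all 6 samples, and the cause was not tested.

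Any pairing of samples by replicate number was weak. Deviations of same-numbered samples correlated at 0.049, -0.0005 and 0.092, and those of differently numbered samples at -0.078 to 0.032. With the replicate number as a block, 6 members were higher and 7 lower, and 4361 genes of the whole table were called in place of 4192. At these library totals, rare chains such as ITGA11 and ITGB3 rest on few counts and have wide intervals.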
